A study of Mus musculus with 80 samples.

Results

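Expression of 8 genes that lie close to E2f2 on mouse chromosome 4 was described across 80 mammary tumours: Pnrc2, Pithd1, Eloa, Cdc42, Pink1, Mul1, Capzb and Aldh4a1. They are 8 of the 12393 genes that the array annotation names with a probe set of a single symbol, and they carry 20 probe sets. The 8 genes were chosen because their signal in E2F2 null tumours (20 arrays) differed from that in the other 60, and because their gene starts lie within 20 Mb of E2f2. Their differences between E2F2 null tumours and the other 60 are therefore given as a description with no test. The 8 genes are tested only on variation that did not enter this choice: between the 3 other genotypes, and between tumours of the same genotype. Other genes are given with their p-values for E2F2 null against the other 60 from the fit over all probe sets.

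The tumours were from FVB mice carrying MMTV-Myc, a transgene in which the mouse mammary tumour virus promoter drives the Myc oncogene in mammary epithelium. All 4 groups carried this transgene, and each group held 20 tumours: E2F2 null, E2F1 null, E2F3 heterozygous, and E2F wild type. The sources used here do not give the ages of the mice, how the E2F alleles were made or in which strain. A germline allele is inherited with the chromosome segment around it, so the loss of E2F2 and any sequence carried along with the allele cannot be told apart in these groups. Each tumour was frozen at its endpoint and measured on 1 Affymetrix array as MAS5 intensity, with no second measurement of the same tumour.

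E2F proteins are transcription factors that, with their pocket protein partners, control genes needed for entry into S phase, and Myc acts in part through them. The 8 genes were grouped here by position, and their products act in unrelated processes. Pnrc2 links the nonsense-mediated decay factor Upf1 to mRNA decapping and Eloa (elongin A) stimulates elongation by RNA polymerase II. Pink1 is the mitochondrial kinase that recruits and activates parkin on damaged mitochondria, Mul1 is an E3 ubiquitin ligase of the outer mitochondrial membrane, and Aldh4a1 is the mitochondrial dehydrogenase that completes the breakdown of proline to glutamate. Capzb is the beta subunit of the protein that caps actin filaments, Cdc42 is a small GTPase that organises the actin cytoskeleton and cell polarity, and Pithd1 is named for its PITH domain.

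In RefSeq's GRCm38.p6 annotation of mouse, 3 of the 8 gene starts lie before that of E2f2 along the chromosome, at 0.3 Mb (Pnrc2), 0.2 Mb (Pithd1) and 0.2 Mb (Eloa). The others follow it, at 1.1 Mb (Cdc42), 2.1 Mb (Pink1), 2.3 Mb (Mul1), 3.0 Mb (Capzb) and 3.5 Mb (Aldh4a1). In all distances, the gene start is the lower coordinate of the gene, whatever its strand. All 8 matched an entry of the RefSeq promoter table. The 250 bases upstream of the transcription start are shown for 3 of them: Pnrc2 and Pink1, whose signals differed in opposite directions, and Mul1, the 1 gene with a motif match. Capitals mark the E-box CACGTG, a sequence bound by Myc and Max, and each sequence is written 5′ to 3′ on the strand of the gene.
Pnrc2, GRCm38.p6 chr4:135873847-135874096, minus strand: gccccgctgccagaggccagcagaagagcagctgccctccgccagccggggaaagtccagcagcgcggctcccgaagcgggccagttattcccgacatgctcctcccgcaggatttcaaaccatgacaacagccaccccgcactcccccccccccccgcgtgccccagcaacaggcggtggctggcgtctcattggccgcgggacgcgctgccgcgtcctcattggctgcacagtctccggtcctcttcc
Pink1, GRCm38.p6 chr4:138326297-138326546, minus strand: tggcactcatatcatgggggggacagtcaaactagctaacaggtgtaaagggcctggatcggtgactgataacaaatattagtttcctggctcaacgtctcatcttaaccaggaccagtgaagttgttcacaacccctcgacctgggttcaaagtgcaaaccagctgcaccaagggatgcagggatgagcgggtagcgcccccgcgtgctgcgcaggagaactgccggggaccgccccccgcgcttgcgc
Mul1, GRCm38.p6 chr4:138434422-138434671, plus strand: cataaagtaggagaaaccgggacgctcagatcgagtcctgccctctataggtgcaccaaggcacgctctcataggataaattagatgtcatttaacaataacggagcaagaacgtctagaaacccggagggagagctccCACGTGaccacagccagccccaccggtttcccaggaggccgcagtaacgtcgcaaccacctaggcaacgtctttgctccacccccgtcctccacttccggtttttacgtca
The E2F letters searched, on both strands, were TTTCCCGC, TTTCGCGC, TTTGCCGC and TTTGGCGC, which do not overlap the E-box letters. None of the 8 windows held any of them, against 1.86% of all 32851 promoter windows of the same length. The E-box was found in the window of Mul1 alone, against 6.02% of all windows. GC content of the 8 windows ran from 45.2% (Cdc42) to 69.6% (Pithd1 and Eloa). A match or its absence describes these letters in these windows only.

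The arrays were alike in overall signal: the median of log2(intensity + 5) over all probe sets averaged 7.19 ± 0.10 in E2F2 null tumours and 7.24 ± 0.12 in the other 60 (SD, n = 20 and 60). Differences below are on this log2 scale, and those from the fit come with its SE. One array stood apart: E2F1 null replicate 6 had a mean correlation with all other arrays of 0.82, against 0.86 for the next lowest and a median of 0.91. Replicates were numbered in order of deposit within each genotype. A number in the tumour labels was shared by 14 of the 20 E2F2 null tumours with at least 1 other tumour of that genotype, which leaves 11 numbers. The sources used here do not say what that number stands for, and it was fitted as a block. Mammary epithelial markers were present at high signal: Krt8 averaged 13.27 ± 0.43 in E2F2 null tumours and 13.16 ± 0.39 in the other 60, and Epcam 12.39 ± 0.19 and 12.40 ± 0.34. Whether E2f2 itself was absent could not be checked, because the annotation used here names no probe set for it.

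Of the 20 probe sets, 17 passed the filter on low signal, which asked for an intensity above 75.1 on at least 10 of 80 arrays, and every gene kept at least 1. The 3 that did not pass were 2 of Pithd1 (1437233_x_at on 3 arrays and 1455974_at on 0) and 1 of Capzb (1431668_at on 0). In the limma fit over all 14068 probe sets that passed, 0.121% had an adjusted p under 0.05 for E2F2 null against the other 60, with 0.064% higher and 0.0569% lower. Among the 17 probe sets of the 8 genes, 10 were in this class, 7 higher and 3 lower, and they belong to 7 genes, all but Aldh4a1. Among the 10 is Mul1 1434118_at, which passed the filter through E2F2 null arrays. Since this contrast chose the genes, nothing is read from the count of 10.

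**Figure D1:**
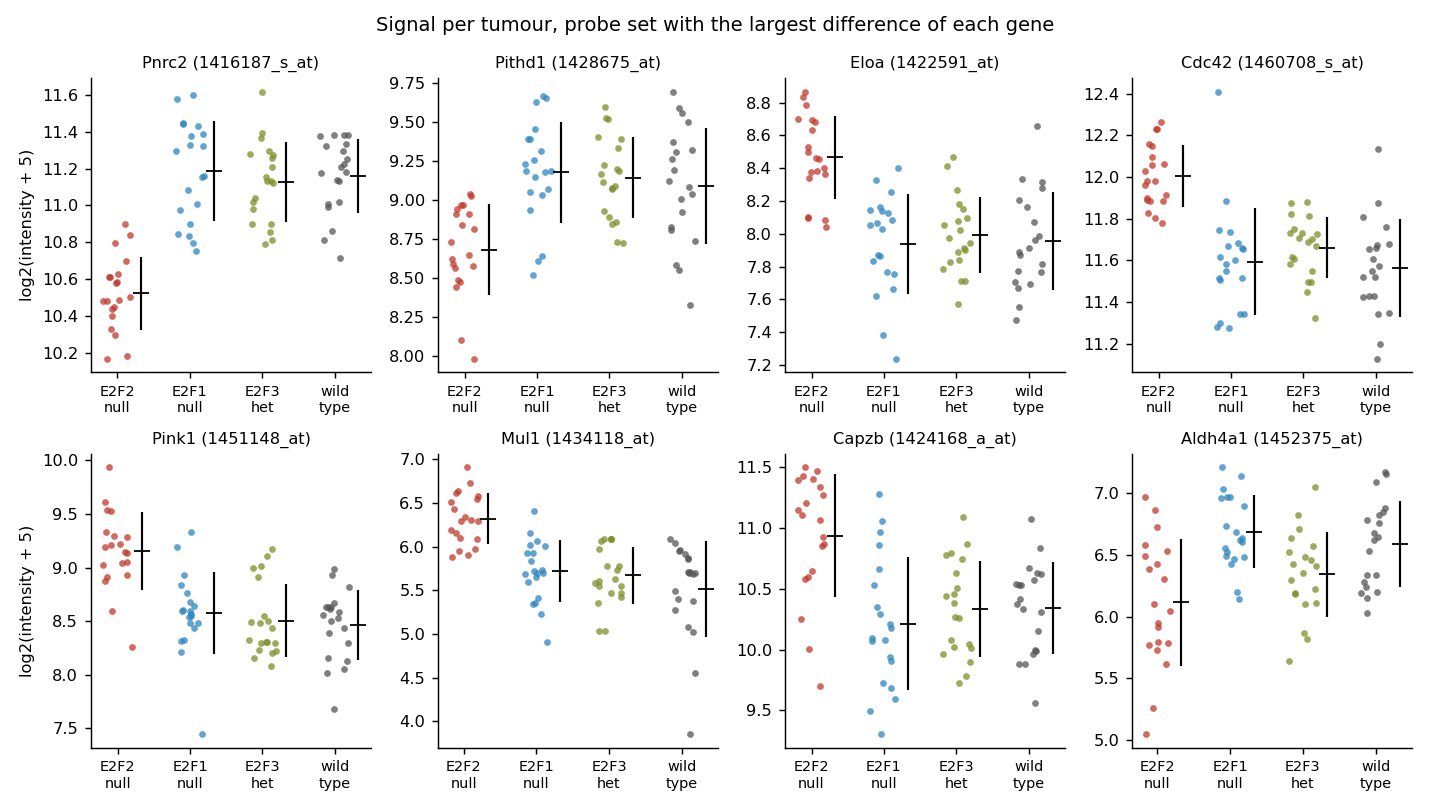
Signal of each tumour as log2(intensity + 5) for the 8 genes, ordered by position along chromosome 4, each by its probe set with the largest difference. Points are tumours (20 per genotype), the bar beside them is the mean ± SD. The E2F2 null points of Pnrc2 lie almost apart from the others (17 of 20 below all other 60), whereas those of Aldh4a1 overlap widely (3 of 20 below).

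Pnrc2 showed the clearest separation of the genotypes. On its brighter probe set (1416187_s_at), E2F2 null tumours had an intensity of 1147 at the lowest, 1439 at the median and 1904 at the highest, against 1673, 2294 and 3134 in the other 60. The groups overlapped only at their edges: 17 of 20 E2F2 null tumours were below all other 60. The 3 exceptions were E2F2 null replicates 11, 2 and 8, with log2 signals of 10.90, 10.84 and 10.79, and the lowest tumour of the other 60 was wild-type replicate 17 at 10.71. Averaged by label number, 10 of the 11 E2F2 null numbers were below every number of the other genotypes. The mean was 10.52 ± 0.20 in E2F2 null tumours and 11.16 ± 0.23 in the other 60 (SD, n = 20 and 60), a fitted difference of -0.62 (SE 0.06), or 1.54-fold lower. Among all 14068 probe sets, this was the only one for which at least 10 of the 20 E2F2 null tumours lay outside the range of the other 60 on 1 side (0.00711%). Pnrc2 was chosen by this same contrast, so nothing is read from its place among all probe sets. The other 3 genotypes had means of 11.19 ± 0.27 (E2F1 null), 11.13 ± 0.22 (E2F3 heterozygous) and 11.16 ± 0.20 (wild type), which differ by less than their SDs.

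The second Pnrc2 probe set (1416186_at) had a smaller difference in the same direction. Its intensity was 876, 1354 and 1714 (lowest, median and highest) in E2F2 null tumours, against 1153, 1591 and 2567 in the other 60. Here 6 of 20 E2F2 null tumours were below all other 60, and the fitted difference was -0.29 (SE 0.07). Across the 80 tumours, after the genotype means were subtracted, the 2 Pnrc2 probe sets followed each other with r = 0.74.

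Eloa had 3 probe sets with different results. On 1422591_at, E2F2 null tumours had intensities of 259, 347 and 462 (lowest, median and highest), against 146, 243 and 398 in the other 60. The groups overlapped over much of their range, with 6 of 20 E2F2 null tumours above all other 60. Means were 8.47 ± 0.25 in E2F2 null tumours and 7.96 ± 0.28 in the other 60, and the fitted difference was 0.50 (SE 0.08). The brightest Eloa probe set (1434117_at) had intensities of 228, 309 and 419 in E2F2 null tumours, against 206, 325 and 459 in the other 60. There the groups lay on top of each other, with a difference of -0.09 (SE 0.08), and 1450676_at lay between the other two at 0.23 (SE 0.08). Within genotypes these 3 probe sets barely followed each other, with r from -0.01 to 0.33.

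Pithd1 was measured by 1 probe set above the filter, 1428675_at. E2F2 null tumours had intensities of 248, 407 and 520 (lowest, median and highest), against 315, 573 and 823 in the other 60. Most E2F2 null tumours lay in the lower part of the range of the other 60, and 2 of 20 (replicates 7 and 9) were below all of them. The means were 8.68 ± 0.29 in E2F2 null tumours and 9.14 ± 0.32 in the other 60, a fitted difference of -0.45 (SE 0.09). The 2 Pithd1 probe sets under the filter had median intensities of 29.1 and 3.5 in E2F2 null tumours, against 32.3 and 4.8 in the other 60.

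Pink1, measured by the single probe set 1451148_at, was higher in E2F2 null tumours. Intensities were 302, 570.0 and 973 (lowest, median and highest) in E2F2 null tumours, against 169, 361 and 639 in the other 60. The groups overlapped: 5 of 20 E2F2 null tumours were above all other 60, and 15 were above all 20 wild-type tumours. E2F2 null replicate 3 was the lowest of its group at a log2 signal of 8.26, below the mean of the other 60. The mean was 9.16 ± 0.36 in E2F2 null tumours and 8.51 ± 0.35 in the other 60, with a fitted difference of 0.64 (SE 0.10), or 1.56-fold higher. Among the other 3 genotypes the means were 8.58 ± 0.38 (E2F1 null), 8.51 ± 0.34 (E2F3 heterozygous) and 8.46 ± 0.33 (wild type), which differ by less than their SDs.

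Mul1, whose start lies next to that of Pink1, had 2 probe sets with different results. On the dim one (1434118_at), E2F2 null tumours had intensities of 53.8, 73.9 and 115 (lowest, median and highest), against 9.4, 47.1 and 80.2 in the other 60. It passed the filter on exactly 10 arrays, of which 9 were E2F2 null and 1 was E2F1 null, so it could enter the fit only through the group where it was high. With that limit, 8 of 20 E2F2 null tumours were above all other 60, and the fitted difference was 0.70 (SE 0.12). On the brighter probe set (1451401_a_at), E2F2 null tumours had 157, 239.7 and 304 (lowest, median and highest), against 99.7, 214 and 311 in the other 60. No E2F2 null tumour was outside the range of the other 60 there, the difference was 0.17 (SE 0.08), and within genotypes the 2 Mul1 probe sets did not follow each other (r = -0.16).

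Aldh4a1 (1452375_at) was close to the filter, and its E2F2 null tumours overlapped widely with the other 60. Intensities were 28.0, 62.3 and 120.4 (lowest, median and highest) in E2F2 null tumours, against 44.9, 87.3 and 143 in the other 60. Of the E2F2 null tumours, 8 of 20 exceeded the filter intensity, against 43 of the other 60, and 3 of 20 were below all other 60. Means were 6.12 ± 0.52 in E2F2 null tumours and 6.54 ± 0.36 in the other 60, and the fitted difference was -0.42 (SE 0.11). Its level varied most between the other genotypes, at 6.69 ± 0.30 in E2F1 null, 6.34 ± 0.34 in E2F3 heterozygous and 6.59 ± 0.35 in wild-type tumours, a spread of about 1 SD.

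Capzb was the gene whose probe sets gave the most even picture. On the brightest (1424168_a_at), E2F2 null tumours had intensities of 828, 2173 and 2891 (lowest, median and highest), against 627, 1256 and 2491 in the other 60. The highest of the other 60 was E2F1 null replicate 6, the array that stood apart: 6 of 20 E2F2 null tumours were above all other 60, and 10 were above the remaining 59. Means were 10.94 ± 0.51 in E2F2 null tumours and 10.30 ± 0.44 in the other 60, and the fitted difference was 0.62 (SE 0.13). The other 2 Capzb probe sets differed by 0.47 (SE 0.08) on 1417259_a_at and 0.51 (SE 0.10) on 1453960_a_at. Within genotypes the 3 probe sets followed each other with r from 0.77 to 0.91.

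The high Capzb signal was uneven among E2F2 null tumours. Replicate 19 was the lowest of its group on all 3 probe sets, and on the brightest its log2 signal was 9.70, below the mean of the other 60. Replicate 2 was next on that probe set with an intensity of 1022, whereas replicate 5 was the highest with 2891. Tumours sharing a label number were more alike: the SD within a number (9 degrees of freedom) was 0.27, 0.17 and 0.13 on 1424168_a_at, 1417259_a_at and 1453960_a_at, against 0.51, 0.33 and 0.40 over all 20 E2F2 null tumours. For Pnrc2 the SD was 0.21 within a number and 0.20 over all 20 on 1416187_s_at, and 0.17 and 0.28 on 1416186_at.

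Cdc42 had 4 probe sets, 1 of which differed. On 1460708_s_at, E2F2 null tumours had intensities of 3511, 4034 and 4914 (lowest, median and highest), against 2233, 3123 and 5431 in the other 60. The E2F2 null tumours filled the upper part of the range of the other 60, and 0 of 20 were above all of them. The highest of the other 60 was again E2F1 null replicate 6, and 5 of 20 were above the remaining 59. The SD of the log2 signal was 0.15 in E2F2 null tumours and 0.22 in the other 60, and the fitted difference was 0.39 (SE 0.06). The other Cdc42 probe sets differed by -0.05 (SE 0.06) on 1449574_a_at, 0.08 (SE 0.06) on 1415724_a_at and -0.09 (SE 0.10) on 1435807_at. The brightest, 1449574_a_at, had a median intensity of 4068 in E2F2 null tumours and 4171 in the other 60.

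**Figure D2:**
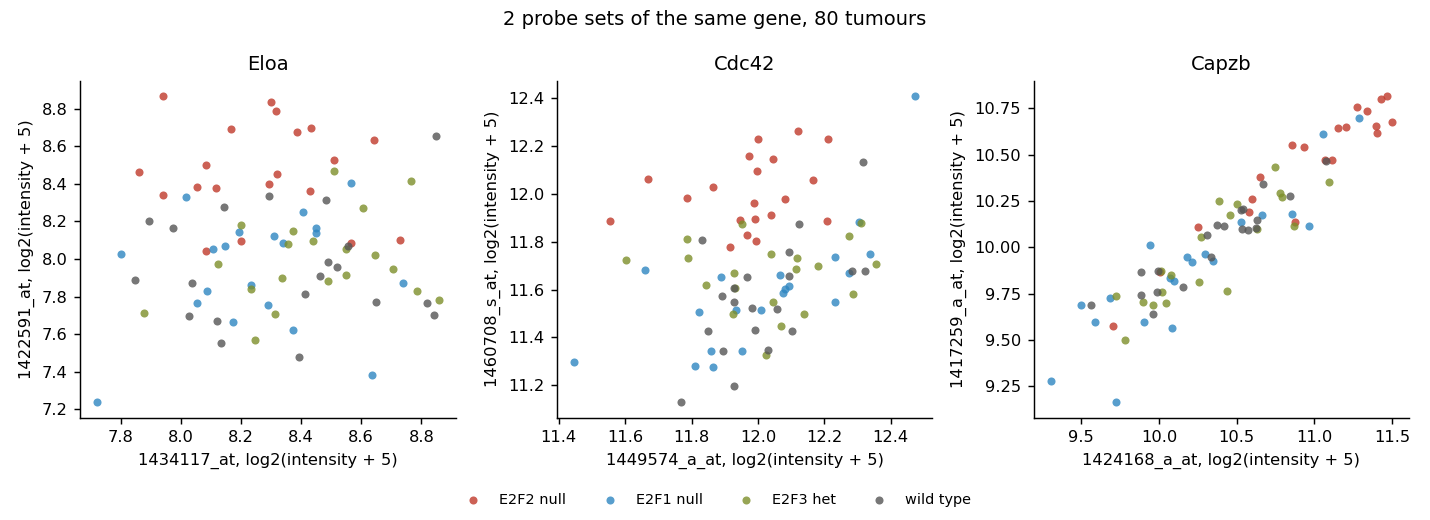
Log2(intensity + 5) of 2 probe sets of the same gene, for Eloa, Cdc42 and Capzb, with 1 point per tumour coloured by genotype. E2F2 null tumours are shifted up but not sideways for Eloa (0.50 against -0.09) and Cdc42 (0.39 against -0.05), and along the diagonal for Capzb (0.47 against 0.62).

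The gap between the highest and the lowest E2F2 null difference among the tested probe sets of a gene was 0.59 for Eloa, 0.52 for Mul1, 0.48 for Cdc42, 0.33 for Pnrc2 and 0.15 for Capzb. The median gap over the 3449 genes with several tested probe sets was 0.11. Nothing is read from this contrast, since the genes were chosen for large differences and the Mul1 gap rests on the probe set that passed the filter through E2F2 null arrays. Where on each transcript the probes lie was not analysed here, and whether their target sequences are the same in all 4 genotypes was not tested.

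**Figure D3:**
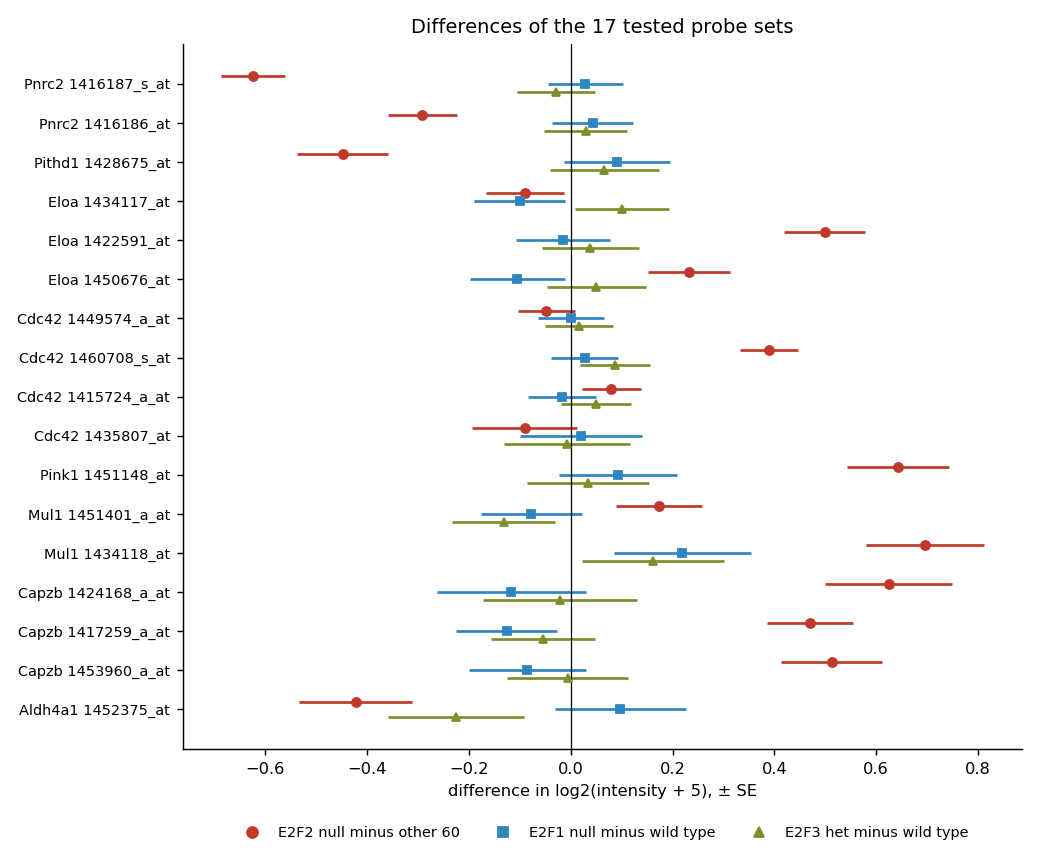
Differences in log2(intensity + 5) with their SE from the limma fit for the 17 tested probe sets of the 8 genes. Circles show E2F2 null minus the other 60, from -0.62 to 0.70, squares E2F1 null minus wild type, from -0.13 to 0.22, and triangles E2F3 heterozygous minus wild type, from -0.23 to 0.16. The upper ends 0.70, 0.22 and 0.16 belong to Mul1 1434118_at, which passed the filter through E2F2 null arrays.

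The genotypes that keep E2F2 provide a comparison that did not enter the choice of genes. None of the 17 probe sets was called by limma's moderated F test over E2F1 null, E2F3 heterozygous and wild-type tumours, for which 0.128% of all probe sets were called (adjusted p under 0.05, Benjamini-Hochberg). The smallest unadjusted p was that of Aldh4a1 (limma, p = 0.0520, adjusted p = 1.00). In E2F1 null against wild type, 0 of 17 were called (0.0924% of all), and in E2F3 heterozygous against wild type 0 of 17 (0.00711% of all). At an unadjusted p under 0.05 the count was 0 of 17 in each of the 3 tests. That count was low over all probe sets too, with 1.26% in the F test, 1.24% in E2F1 null and 0.697% in E2F3 heterozygous tumours.

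The sizes of these differences were small. In E2F1 null against wild type they ran from -0.13 (Capzb 1417259_a_at) to 0.22 (Mul1 1434118_at), with SEs from 0.07 to 0.15 and a median size of 0.09, against 0.06 over all probe sets. In E2F3 heterozygous against wild type they ran from -0.23 (Aldh4a1) to 0.16 (Mul1 1434118_at), with a median size of 0.05, against 0.06 over all. On Mul1 1434118_at, the filter intensity was exceeded by 0 of 20 wild-type, 0 of 20 E2F3 heterozygous and 1 of 20 E2F1 null tumours. Both upper ends therefore rest mostly on signal under the filter. For Pnrc2 (1416187_s_at) the E2F1 null difference was 0.03, with an interval of 2 SE on either side from -0.12 to 0.18. For Pink1 it was 0.09, with the same kind of interval from -0.14 to 0.33. These 2 comparisons share the wild-type tumours.

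Of the 17 probe sets called for E2F2 null against the other 60, 14 lie on chromosome 4, and 10 of these 14 belong to the 8 genes, which were chosen by this contrast and by their position. Among the 10 is Mul1 1434118_at, which could enter the fit only through E2F2 null arrays, and no other Mul1 probe set was called. The 14 probe sets belong to 11 genes from 3.3 Mb before E2f2 (Fam76a) to 3.0 Mb after it (Capzb). That stretch holds 108 tested probe sets of 66 genes, so 55 of its genes had none. No probe set was called in the bins from 5 to 20 Mb on either side, or among 412 on the rest of the chromosome. On other chromosomes 3 of 13195 probe sets were called (0.0227%). By brightest probe set, 26 of 257 genes on the rest of chromosome 4 had an unadjusted limma p under 0.05. With the 8 genes left out, this held for 21 of 88 genes within 5 Mb and 45 of 284 within 20 Mb. Over all probe sets the share was 11.9%.

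With the 8 genes left out, 4 of 80 probe sets remained called in the 5 Mb before E2f2, and 0 of 51 in the 5 Mb after it. These 4 genes are not among the 8. Srrm1, a splicing coactivator 0.9 Mb before E2f2, averaged 7.06 ± 0.58 in E2F2 null tumours and 7.86 ± 0.51 in the other 60 (difference -0.74, SE 0.15, limma adjusted p = 0.00346). Fam76a averaged 6.86 ± 0.21 in E2F2 null tumours and 7.31 ± 0.28 in the other 60 (difference -0.44, SE 0.07, limma adjusted p = 0.00016). Selenon, a selenoprotein of the endoplasmic reticulum, fell by 0.48 (SE 0.11, limma adjusted p = 0.0300). Clic4, a chloride intracellular channel protein, rose by 0.34 (SE 0.07, limma adjusted p = 0.00992). Against wild-type tumours alone all 4 kept their direction and none passed, with limma adjusted p from 0.135 to 0.698. With 1 mean per label number only Fam76a of the 4 was called, and Selenon was lost without label number 4010 or 4013 (limma adjusted p = 0.112 and 0.117). Other probe sets of Srrm1 (3, from -0.23 to 0.17), Fam76a (1, at -0.16) and Clic4 (2, from 0.06 to 0.23) had smaller differences.

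**Figure D4:**
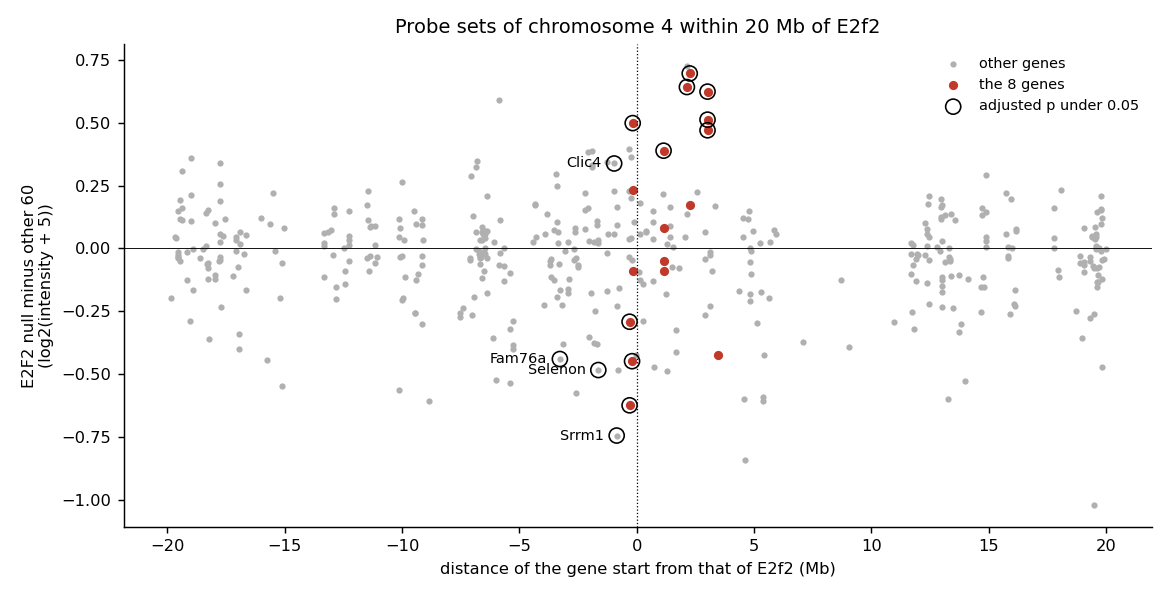
Difference between E2F2 null tumours and the other 60 in log2(intensity + 5) for each tested probe set of chromosome 4 within 20 Mb of E2f2, by distance of the gene start from that of E2f2 in Mb. Red points are the 8 genes and rings mark an adjusted p under 0.05, all between -3.3 and 3.0 Mb, of which 10 of 14 belong to these 8 genes, chosen by this contrast. Among the 10 is Mul1 1434118_at, which passed the filter through E2F2 null arrays.

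Averaged over the region, the difference between the groups was smaller than the spread between single tumours. A regional score, the mean centred log2 signal of the 284 other tested genes within 20 Mb, was -0.05 ± 0.08 in E2F2 null tumours and 0.02 ± 0.11 in the other 60. The difference of -0.06 is less than either SD, and the same score for the rest of chromosome 4 differed by -0.02. These SDs describe single tumours and not the precision of the group means, and the difference was not tested. Rises and falls of single genes cancel in such a mean. Within 5 Mb, without the 8 genes, 51.9% of 131 probe sets were higher in E2F2 null tumours, and within 20 Mb 46.6% of 444, against 48.0% over all tested probe sets. By the brightest probe set of each gene, as in the score, 39 of 88 genes within 5 Mb and 117 of 284 within 20 Mb were higher. Differences larger than 0.3 in either direction were found in 19.1% of these 131 probe sets, against 9.22% on the rest of the chromosome and 10.1% on other chromosomes. Between 5 and 10 Mb the share was 16.2% of 68 probe sets before E2f2 and 38.5% of 13 after it. Between 10 and 20 Mb it was 8.49% of 106 before and 5.56% of 126 after. Among the 8 genes, higher and lower ones lay side by side along the chromosome. Pnrc2 and Pithd1 were lower, the neighbouring Eloa was higher on 1 of 3 probe sets, and Cdc42, Pink1, Mul1 and Capzb were higher on at least 1. These directions come from the contrast that chose the genes. The larger Mul1 difference is on the probe set that passed the filter through E2F2 null arrays.

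Variation among tumours of the same genotype did not enter the choice of genes, so the 28 pairs of the 8 genes were compared within genotypes. The brightest probe set of each gene was averaged per label number (n = 53), and the genotype mean was subtracted. Pearson's r ran from -0.50 to 0.52 with a median of -0.03, so these probe sets did not vary as a group. For Eloa, Cdc42 and Mul1 the brightest probe set was not the one with the largest E2F2 null difference. After adjustment over 28 pairs, 4 passed by Pearson's r and 3 of them also by Spearman's coefficient (permutation within genotype, two-sided). The share of passing pairs among other genes is not given here, so nothing particular to the 8 genes is read from this count. Capzb and Cdc42, both of the actin cytoskeleton, were positively correlated (r = 0.52, adjusted permutation p = 0.0034, and a Spearman coefficient of 0.43, adjusted p = 0.026). Pithd1 was negatively correlated with Cdc42 (r = -0.50, Spearman -0.43) and with Capzb (r = -0.45, Spearman -0.42). Pnrc2 and Pink1 had r = 0.38 (adjusted permutation p = 0.0463) and a Spearman coefficient of 0.32 (adjusted p = 0.139).

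These relations were not the same in every genotype, and differences between genotypes were not tested. For Capzb and Cdc42, r was 0.69 in E2F2 null (n = 11 numbers), 0.55 in E2F1 null (n = 16), -0.41 in E2F3 heterozygous (n = 10) and 0.74 in wild-type tumours (n = 16). For Pithd1 and Cdc42, r was -0.37 in E2F2 null, -0.61 in E2F1 null, 0.07 in E2F3 heterozygous and -0.68 in wild-type tumours. For Capzb and Pithd1 it was -0.30, -0.43, -0.05 and -0.75 in the same order. For Pnrc2 and Pink1, r was -0.01 in E2F2 null, 0.56 in E2F1 null, 0.89 in E2F3 heterozygous and -0.10 in wild-type tumours. Leaving out the 2 label numbers farthest from the median of the first gene gave 0.38, -0.40, -0.38 and 0.32 for the 4 pairs. Without E2F1 null replicate 6 no pair passed by Spearman's coefficient, with an adjusted permutation p of 0.068 for the 3 that had. By Pearson's r 5 pairs passed there, among them these 4 (adjusted permutation p from 0.016 to 0.027). With the mean of the surrounding region subtracted, Pithd1 and Cdc42 had r = -0.14 and Capzb and Pithd1 had r = -0.35 (adjusted permutation p = 0.529 and 0.0512). Capzb and Cdc42 then had r = 0.52 and Pnrc2 and Pink1 r = 0.42 (adjusted permutation p = 0.0056 and 0.0194). In that setting 5 pairs passed by Pearson's r, all positive, and 2 by Spearman's coefficient.

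**Figure D5:**
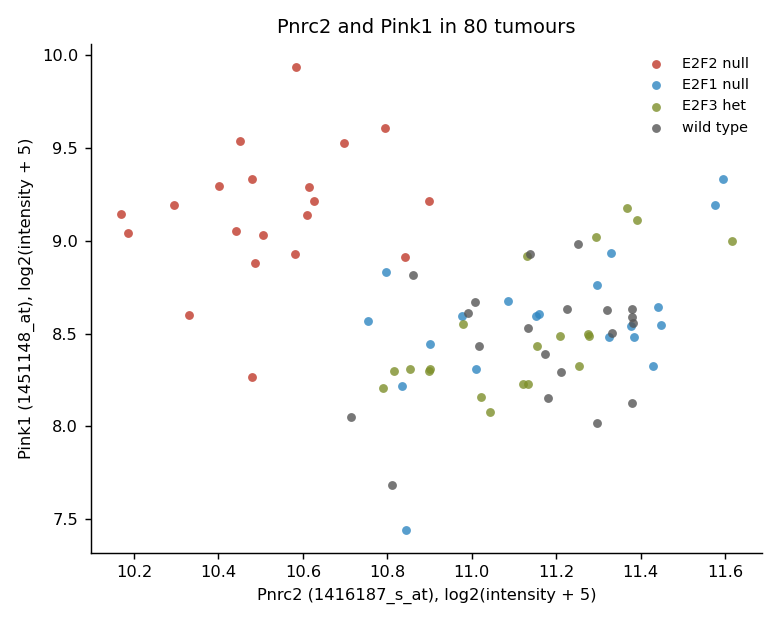
Pink1 against Pnrc2 as log2(intensity + 5) in 80 tumours, coloured by genotype. E2F2 null tumours form the upper left group, with mean Pnrc2 10.52 and mean Pink1 9.16, against 11.16 and 8.51 in the other 60.

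The genes that varied most like each of the 8 within genotypes were named as a description, by Pearson's r over 80 tumours among 8755 other genes. Points share an array and tumours may share a label number, so no p is given. Pnrc2 was most like Clcc1 (r = 0.68), Zfp932 (0.66) and Gatc (0.65), and Pink1 was most like Tmigd1 (0.65), Mlph (0.63) and Ift46 (0.63). None of these 6 lies on chromosome 4. For the other genes the closest were Akirin1 for Capzb (r = 0.73), Rfc5 for Pithd1 (0.76), Grpel1 for Mul1 (0.75), Nipsnap3b for Cdc42 (0.65), Ankrd13a for Eloa (0.61) and Pof1b for Aldh4a1 (0.47). Akirin1 and Nipsnap3b are on chromosome 4, at 12.4 and 83.2 Mb before E2f2.

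Genes that act with the 8 were followed as 5 lists, none of which holds any of the 8. For mitochondrial quality control, the process of Pink1 and Mul1, 20 of 25 listed genes were tested and 0 were called by limma in either direction (4 had an unadjusted p under 0.05). The median difference was 0.05, against -0.01 over all probe sets, and the largest were Bnip3, a mitophagy receptor (0.39, SE 0.25), and Tomm22, of the outer membrane import complex (0.30, SE 0.10). For actin capping and Cdc42 signalling, 17 of 24 were tested and 0 were called (3 with an unadjusted p under 0.05), with a median of -0.08. There Capg, an actin filament capping protein, differed by -0.46 (SE 0.19) and Capza2, an alpha subunit that pairs with Capzb, by -0.24 (SE 0.13).

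The 3 remaining lists had no called gene either. For elongin and transcription elongation, 13 of 16 genes were tested, 0 were called (1 with an unadjusted p under 0.05) and the median was -0.02, with Tcea1 at 0.13 (SE 0.06) and Nelfe at 0.09 (SE 0.06). For nonsense-mediated decay and decapping, 10 of 17 were tested, 0 were called (3 with an unadjusted p under 0.05) and the median was -0.04, with Smg6 at -0.24 (SE 0.13) and Edc4 at -0.18 (SE 0.06). For proline and glutamate metabolism, 8 of 11 were tested, 0 were called (0 with an unadjusted p under 0.05) and the median was 0.13, with Got1 at 0.21 (SE 0.23) and Glul at 0.17 (SE 0.26). Over all probe sets 11.9% had an unadjusted p under 0.05 in this contrast.

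Markers of other cell types were followed in the same way, because in bulk tissue fewer cells of a type and less RNA per cell cannot be told apart. No marker was called by limma, and 1 endothelial and 1 macrophage marker had an unadjusted p under 0.05. The score of 11 epithelial markers was 0.20 ± 0.89 in E2F2 null tumours and -0.06 ± 0.95 in the other 60. The score of 6 fibroblast markers was -0.09 ± 0.88 and 0.03 ± 1.14 in the same order, and that of 5 endothelial markers -0.14 ± 0.34 and 0.05 ± 0.53. The score of 5 macrophage markers was -0.13 ± 0.46 and 0.04 ± 0.64. One of them, C1qa, itself starts 0.7 Mb after E2f2 and had a difference of -0.47 (SE 0.20, limma adjusted p = 0.368). C1qb was the only 1 of the 5 that was higher, at 0.15 (SE 0.18). The positions of C1qb and of the remaining markers are not given here, so they may also lie near E2f2. None of 5 T cell and 4 B cell markers passed the filter. The 7 skeletal muscle markers scored -0.15 ± 1.43 in E2F2 null tumours and 0.05 ± 1.58 in the other 60. Their part in the differences of the 8 genes was not tested. The log2 ratio of 3′ over 5′ signal, a measure of RNA quality, was -0.32 ± 0.08 in E2F2 null tumours and -0.29 ± 0.09 in the other 60 for the Gapdh controls. For the beta-actin controls it was 0.68 ± 0.18 in E2F2 null tumours and 0.78 ± 0.24 in the other 60, and the part of RNA quality in the differences was not tested.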

How the data were processed

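The authors made the deposited intensity values with MAS5 in Affymetrix Expression Console, per the submitters' processing notes. The sources used here do not give versions, nor the genome build of the array annotation. The 2% trimmed mean of each array was about 500.2, so the arrays had been scaled to 1 level. Of 22690 probe sets, 64 are controls, and 20380 have 1 symbol, 691 several and 1555 none. Symbols were updated through RefSeq (20351 matched). Intensities were turned into log2(intensity + 5), and probe sets above the 40th percentile on at least 10 of 80 arrays were tested (14068 of 8756 genes), all together, with limma 3.58.1 in R 4.3.3 (trend and robust moderation, label number as random block with consensus correlation 0.167, two-sided, Benjamini-Hochberg adjustment, threshold 0.05). The 8 genes and the gene lists were chosen with earlier results of these data known. Named beyond the 8 are called genes within 20 Mb, the closest genes by r, and per list the 2 largest differences. Outside this rule, Krt8, Epcam, C1qa and C1qb were named as markers, and Rbbp9, Zcchc3 and Csgalnact2 as called genes elsewhere, after their values were seen. Nothing says whether tumours sharing a label number came from 1 animal, so p-values measure the spread between these tumours. Correlations used 100000 permutations (Python 3.11.15, scipy 1.17.1). The script was tested on simulated data. Arrays give no counts, and their number limits the precision. Alternatives were the pseudocount, filter, normalization, block, moderation, reference, probe set choice, and left-out arrays or label numbers. Counts of E2F2 null tumours outside the range of the other 59 arrays were added after the data were seen.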

Additional observations from a re-analysis of the deposited data

How the results depend on the processing

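For the 8 genes, 219 of 221 differences recomputed under other settings moved by less than 1 SD between replicates. The exceptions used the mean over all probe sets of a gene: Eloa had 0.21 in place of -0.09 on its brightest probe set, and Mul1 0.43 in place of 0.17. Besides Eloa, the sign changed for the brightest Cdc42 probe set, with 0.08 in place of -0.05 under the same setting, and for no other. The count of probe sets called for E2F2 null against the other 60 was 17, and it was 11 with a stricter filter, 26 without the label-number block, 7 with 1 mean per label number and 5 against wild type alone. With 1 mean per label number, 5 probe sets of the 8 genes were in that class in place of 10. Of the 4 other called genes near E2f2, only Fam76a was still called with 1 mean per label number (limma adjusted p = 0.0201), whereas Srrm1 (0.333), Clic4 (0.143) and Selenon (0.289) were not, and Selenon was also lost without label number 4010 (0.112) or 4013 (0.117). With the stricter filter, the F test called 3 in place of 18, E2F1 null against wild type 2 in place of 13, and E2F3 heterozygous against wild type 0 in place of 1, with 34 at an unadjusted p under 0.05. With 1 mean per label number that last count was also 0, with 47 at an unadjusted p under 0.05. Over single tumours, 7 pairs of the 8 genes passed in place of 4. The causes of these shifts were not tested, beyond the fewer probe sets or samples that the settings leave. No paired analysis was possible because no label number is shared between genotypes and replicate numbers only follow the order of deposit. Signal close to the filter limits Aldh4a1 and Mul1 1434118_at most.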

Other observations

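Away from chromosome 4, 3 probe sets were called for E2F2 null against the other 60. Rbbp9 and Zcchc3 lie on chromosome 2, and for both the E2F1 null tumours stood apart from the other 3 genotypes. Rbbp9 averaged 6.26 ± 0.31 in E2F2 null, 8.27 ± 0.42 in E2F1 null, 6.26 ± 0.38 in E2F3 heterozygous and 6.37 ± 0.40 in wild-type tumours (SD, n = 20 each). Zcchc3 averaged 7.74 ± 0.29 in E2F2 null, 6.37 ± 0.54 in E2F1 null, 7.44 ± 0.36 in E2F3 heterozygous and 7.69 ± 0.39 in wild-type tumours. Csgalnact2, a chondroitin sulphate synthesis enzyme on chromosome 6, averaged 8.58 ± 0.30 in E2F2 null tumours and 9.03 ± 0.36 in the other 60 (difference -0.44, SE 0.10, limma adjusted p = 0.0217). Against wild type alone the limma adjusted p was 0.903 for Rbbp9, 0.951 for Zcchc3 and 0.151 for Csgalnact2. With 1 mean per label number Rbbp9 was still called (0.00215), whereas Zcchc3 (0.108) and Csgalnact2 (0.333) were not. Csgalnact2 was also lost without label number 4010 (0.120) or 4013 (0.0695).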
